A study of Homo sapiens with 6 samples.

Results

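The genes described here are the nuclear genes that encode the subunits of the mitochondrial respiratory chain and ATP synthase, read out by RNA-seq in IMR90 cells. Members were chosen by name: protein-coding genes whose symbols begin NDUFA, NDUFB, NDUFC, NDUFS, NDUFV, UQCR, COX4I, COX5, COX6, COX7 or COX8, or ATP5 followed by a subunit letter, plus SDHA, SDHB, SDHC, SDHD and CYC1. The rule gave 87 genes of the 57659 in the count files: 36 of complex I, 4 of complex II, 10 of complex III, 19 of complex IV and 18 of ATP synthase. Assembly factors (8 NDUFAF genes), the ATP synthase inhibitor ATP5IF1, DMAC2L, 2 readthrough loci and 167 entries that are not protein-coding, most of them pseudogenes, were left out. NDUFA4 and NDUFA4L2 were placed with complex IV, of which the NDUFA4 protein is a part. Of the 87 members, 79 had enough reads for a test and 8 did not, of which 3 had no read in any library.

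IMR90 is a line of primary human fetal lung fibroblasts grown in serum-containing medium. The 3 knockdown libraries came from cells carrying a short hairpin RNA (shRNA) against macroH2A1, an H2A-type histone variant that carries a bulky domain at its end. The 3 control libraries came from cells carrying a hairpin against luciferase, an enzyme gene of fireflies with no human counterpart, so both groups express a hairpin. The series calls the libraries biological replicates and compares the groups for changes in gene expression, with 1 cell line and no other factor. Levels are counts per 1000000 gene counts (CPM) scaled by TMM, a normalization that matches libraries on most of their genes. A gene is called changed at an adjusted p under 0.05 in edgeR's quasi-likelihood test over all genes tested.

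The respiratory chain moves electrons from NADH (through complex I) and succinate (through complex II) by way of ubiquinone to complex III, then by cytochrome c to complex IV, where oxygen is reduced. Complexes I, III and IV pump protons across the inner mitochondrial membrane, and ATP synthase uses the gradient to make ATP. Most subunits are encoded in the nucleus and imported, while a small set is encoded in mitochondrial DNA, so complexes I, III, IV and ATP synthase are built from products of both genomes. Complex II is encoded entirely in the nucleus. The nuclear factors NRF1, GABP (which binds ETS motifs) and YY1 are known regulators of many of these genes.

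Libraries held 3741087 to 5322851 gene counts in the knockdown group and 3744716 to 6421605 in the control group, where 3 counts correspond to 0.467 to 0.802 per 1000000. The targeted gene MACROH2A1 averaged 40.9 ± 2.51 CPM in knockdown and 88.3 ± 3.62 CPM in control libraries (SD, n = 3 each; log2 fold change -1.11, SE 0.08, edgeR adjusted p = 0.000917). All 11 fibroblast markers were detected, and their summed level was 15051 to 16414 CPM in knockdown and 10569 to 12177 CPM in control libraries. Of 9 epithelial, 6 endothelial, 6 blood cell and 7 muscle markers, 1 muscle marker had enough reads for a test. Their sums were at most 0.652, 1.07, 1.07 and 8.57 CPM in knockdown libraries and at most 0.529, 1.74, 1.59 and 9.15 CPM in control libraries. SFTPB, SFTPA1, SCGB1A1, PECAM1, CD3E and CKM had no read at all. In bulk RNA, fewer cells of a kind and less RNA per cell cannot be told apart.

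The promoters of 3 members are shown because the results below turn on these genes: NDUFV3, the member that passed the test, and UQCRC1 and UQCRFS1, the complex III genes with the highest and the lowest log2 fold change, neither of which passed it. The sequences are from RefSeq (GRCh38.p14), run 5′ to 3′ on the strand of the gene, and span 250 bases before to 50 bases after the annotated start. NDUFV3 lies at chr21:42893059-42893358 on the plus strand, UQCRC1 at chr3:48609597-48609896 on the minus strand and UQCRFS1 at chr19:29213102-29213401 on the minus strand. Capitals mark matches to the NRF1 motif (GCGCA, 1 base of any kind, then GCGC) and the YY1 motif AAGATGGC. The ETS motif CCGGAAG was also searched, each on both strands, and has no match in these 3 windows.
NDUFV3: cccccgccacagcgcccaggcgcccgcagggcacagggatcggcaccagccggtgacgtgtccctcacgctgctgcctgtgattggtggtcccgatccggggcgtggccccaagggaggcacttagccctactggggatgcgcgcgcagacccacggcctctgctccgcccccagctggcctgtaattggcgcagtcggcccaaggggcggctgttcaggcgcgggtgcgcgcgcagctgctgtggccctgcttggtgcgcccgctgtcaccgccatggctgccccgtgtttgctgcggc
UQCRC1: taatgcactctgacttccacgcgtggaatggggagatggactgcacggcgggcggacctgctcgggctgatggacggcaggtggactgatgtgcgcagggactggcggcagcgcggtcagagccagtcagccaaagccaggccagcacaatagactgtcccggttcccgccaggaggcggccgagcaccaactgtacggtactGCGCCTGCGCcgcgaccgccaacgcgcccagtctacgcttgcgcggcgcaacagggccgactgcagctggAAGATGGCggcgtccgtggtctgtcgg
UQCRFS1: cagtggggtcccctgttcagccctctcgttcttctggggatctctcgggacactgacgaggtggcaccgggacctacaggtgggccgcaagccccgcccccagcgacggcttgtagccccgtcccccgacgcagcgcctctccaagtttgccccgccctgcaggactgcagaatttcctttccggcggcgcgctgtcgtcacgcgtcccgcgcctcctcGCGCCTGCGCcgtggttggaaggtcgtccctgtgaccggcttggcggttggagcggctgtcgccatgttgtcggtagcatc
UQCRC1 and UQCRFS1 carry the same match, GCGCCTGCGC, to the NRF1 motif on the opposite strand, which starts 47 bases before the annotated start in UQCRC1 and 31 bases before it in UQCRFS1. The YY1 match of UQCRC1 lies 24 bases after the start. NDUFV3 has none of the 3 motifs in this window.

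Promoters of 68 of the 87 members were found in the RefSeq table. The NRF1 motif was present in 17 of them (25%), against 6.28% of 27305 promoters of the same length. The ETS motif was present in 20 (29.4%), against 10.7% of all promoters, and the YY1 motif in 10 (14.7%), against 3.03%. At least 1 of the 3 was found in 38 members (55.9%) and in 17.9% of all promoters. These are descriptions of letters in a window, and the motifs can occur in the same promoter. The comparison promoters were not matched to the members for GC content or level of expression. The response to knockdown differed little by motif: the median log2 fold change was -0.03 over 16 tested members with the NRF1 motif and -0.09 over 48 without it. For the ETS motif it was -0.10 over 20 members with it and -0.06 over 44 without it. For the YY1 motif it was -0.02 over 10 members with it and -0.09 over 54 without it.

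Most subunit genes differed little between knockdown and control cells. Of the 79 members tested, 1 was called changed, NDUFV3, which was lower in knockdown, and none was called higher. Over all 13445 genes tested, 8.21% were called, 3.90% as higher and 4.31% as lower, and over the 10437 protein-coding genes tested 9.64% were called, 4.40% as higher and 5.24% as lower. The share of members called is therefore below the background. The median log2 fold change of the members was -0.10, against 0.01 over all genes tested and -0.01 over protein-coding genes, with 48 members below 0 and 31 above it. Log2 fold changes ranged from -0.72 for NDUFA3 to 1.10 for NDUFS7. An absolute log2 fold change above 0.5 was found in 3 members (3.80%), NDUFA3, ATP5MC1 and NDUFS7, and in 19.3% of all genes tested. Among protein-coding genes of a level like the members', between the 10th and 90th percentile of member CPM, the share was 11.2%.

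The precision of the measurement limits how small a change could be seen. The 95% confidence interval of the log2 fold change lay within ±0.5 for 42 of the 79 members and within ±1 for 73, with a median half-width of 0.29. At an unadjusted p under 0.05, 10 of the 79 members passed, 9 lower and 1 higher in knockdown, fewer for their number than the 24.6% of all genes tested that passed (12.5% lower and 12.0% higher). The ranges of the groups did not overlap for 19 members, 15 lower and 4 higher in knockdown, while 30.4% of all genes tested had groups that did not overlap (15.9% lower and 14.5% higher). Member levels averaged 3.02 to 316 CPM over the 6 libraries, with a median of 23.1 CPM.

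**Figure D1:**
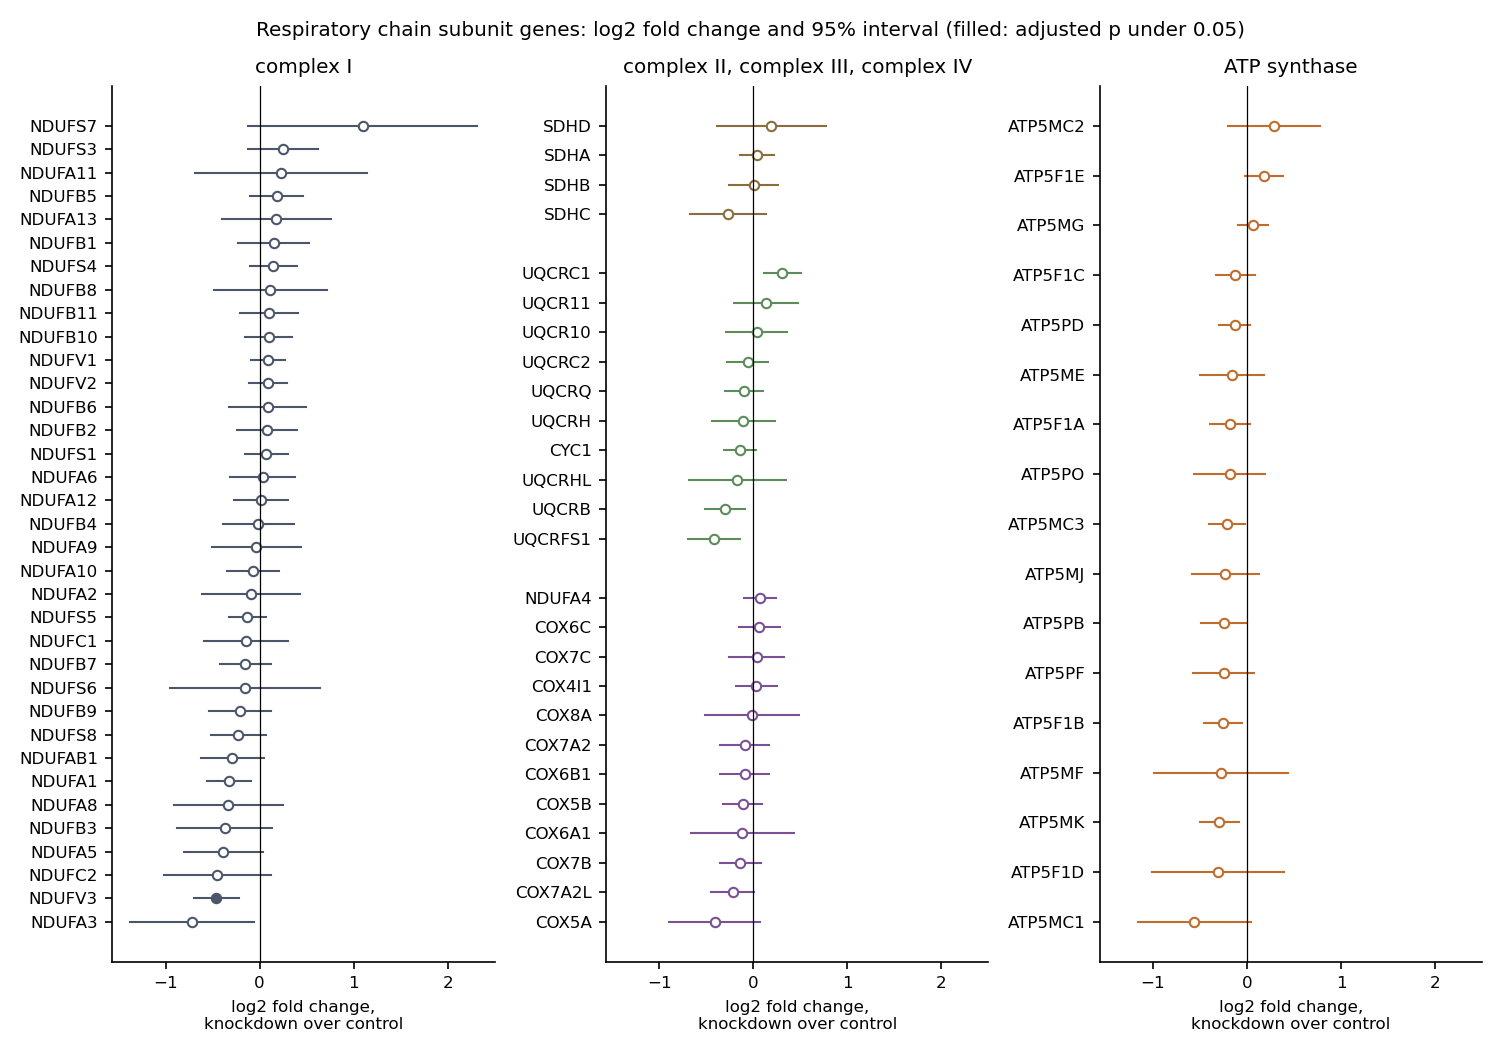
Log2 fold change of 78 of the 79 tested members, knockdown over control, with its 95% confidence interval from the edgeR fit, grouped by complex. Most intervals include 0, the filled point marks NDUFV3, the member that passed the test, and NDUFS7 has the highest value at 1.10 with an interval from -0.12 to 2.31.

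Complex I, NADH:ubiquinone oxidoreductase, oxidises NADH on a matrix arm and pumps protons in a membrane arm. Its 36 tested genes divided evenly, 18 above and 18 below 0, with a median log2 fold change of 0.00. NDUFV3, an accessory subunit beside the NADH-oxidising flavoprotein, had 23.7, 20.9 and 19.6 CPM in knockdown libraries and 28.0, 30.4 and 30.1 CPM in control libraries. Every knockdown library was below every control library. Its mean was 21.4 ± 2.14 CPM in knockdown and 29.5 ± 1.32 CPM in control (SD, n = 3 each), a log2 fold change of -0.46 (SE 0.10, 95% interval -0.69 to -0.22, edgeR adjusted p = 0.0382), or 1.37-fold lower. These levels rest on 73 to 120 counts per knockdown library and 114 to 177 per control library. The call was lost in 8 of 17 alternative analyses. Among these, it was lost when any 1 library other than knockdown replicate 1 was left out, with edgeR adjusted p from 0.0892 to 0.119, with no filter on low counts (adjusted p = 0.0562) and with DESeq2 (adjusted p = 0.0938), and the log2 fold change stayed below 0 each time. A replicate block in the fit lost the call too.

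Of the core subunit genes of complex I, NDUFV1 and NDUFS1 differed little, and the core genes NDUFS3, NDUFS7 and NDUFS8 are described below. NDUFV1, which binds NADH and FMN, had 33.0, 35.0 and 32.4 CPM in knockdown and 31.3, 32.7 and 30.4 CPM in control libraries, with overlapping groups (log2 fold change 0.09, 95% interval -0.09 to 0.27, edgeR adjusted p = 0.595). NDUFS1, the largest iron-sulfur subunit, had 88.6, 105 and 97.8 CPM in knockdown and 101, 87.1 and 89.1 CPM in control libraries (log2 fold change 0.07, edgeR adjusted p = 0.698). For both core genes the groups overlapped.

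In complex I, 5 further genes had groups that did not overlap, which with NDUFV3 makes 6 of 36. Over all genes tested the share was larger, 30.4%. NDUFA1, a small membrane-arm subunit, averaged 20.5 ± 1.5 CPM in knockdown and 25.6 ± 1.73 CPM in control libraries (SD, n = 3 each; log2 fold change -0.32, SE 0.10, edgeR adjusted p = 0.0981). NDUFA3, another membrane-arm subunit and the member with the lowest log2 fold change, had 2.97, 2.17 and 4.02 CPM in knockdown and 5.70, 4.34 and 4.76 CPM in control libraries (-0.72, SE 0.28, edgeR adjusted p = 0.173). The NDUFA3 values rest on 10 to 15 counts per knockdown library and 18 to 36 per control library. NDUFAB1, the mitochondrial acyl carrier protein, and the iron-sulfur core subunit NDUFS8 also had lower values in every knockdown library than in any control library (log2 fold changes -0.29 and -0.22, edgeR adjusted p = 0.267 and 0.320). NDUFS3, a core subunit, had higher values in every knockdown library (0.25, edgeR adjusted p = 0.383). None of these 5 genes passed the test.

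NDUFS7, the core subunit that carries the iron-sulfur cluster next to ubiquinone, stood apart from every other member in its spread. It had 249, 156 and 507 CPM in knockdown libraries, from 1259, 716 and 1894 counts. In control libraries it had 68.7, 176 and 182 CPM, from 434, 769 and 689 counts. Knockdown replicates 3 and 1 were above all control libraries, knockdown replicate 2 was below control replicates 2 and 3, and control replicate 1 was the lowest. The log2 fold change was 1.10 (SE 0.51, 95% interval -0.12 to 2.31, edgeR adjusted p = 0.249), which did not pass the test, and the groups overlapped. The log2 fold change was 0.51 without knockdown replicate 3 and 0.77 without control replicate 1. The within-group SD of log2 CPM was 0.83, against a median of 0.16 over the 79 members and 0.48 for the next highest, NDUFS6.

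Likeness to NDUFS7 over the 6 libraries was measured by Pearson's r of log2 CPM, with 0.5 added to CPM. Among tested genes with a symbol, the closest was RNU1-11P, a copy of the gene for U1 small nuclear RNA. It had 4092, 2310 and 6092 CPM in knockdown libraries and 1419, 3147 and 2876 CPM in control libraries, in the same order as NDUFS7 but for control replicates 2 and 3. This gene was chosen after the values were seen, and the likeness is a description with no test. Next among genes with a symbol were UQCRBP1, a pseudogene, and CDON, a protein-coding gene (r = 0.984 and 0.983, against 0.985 for RNU1-11P). Of the 50 genes most like NDUFS7, 3 were small nuclear RNA genes (6%, against 2.34% of genes tested) and 32 were protein-coding (64%, against 77.6%). The exons of NDUFS7 overlap 2 antisense genes in GENCODE 29, whose counts came to 15 over the 6 libraries, against 5761 for NDUFS7. The sources used here do not give the strand option of the counting. Whether these features bear on the spread of NDUFS7 was not tested.

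**Figure D2:**
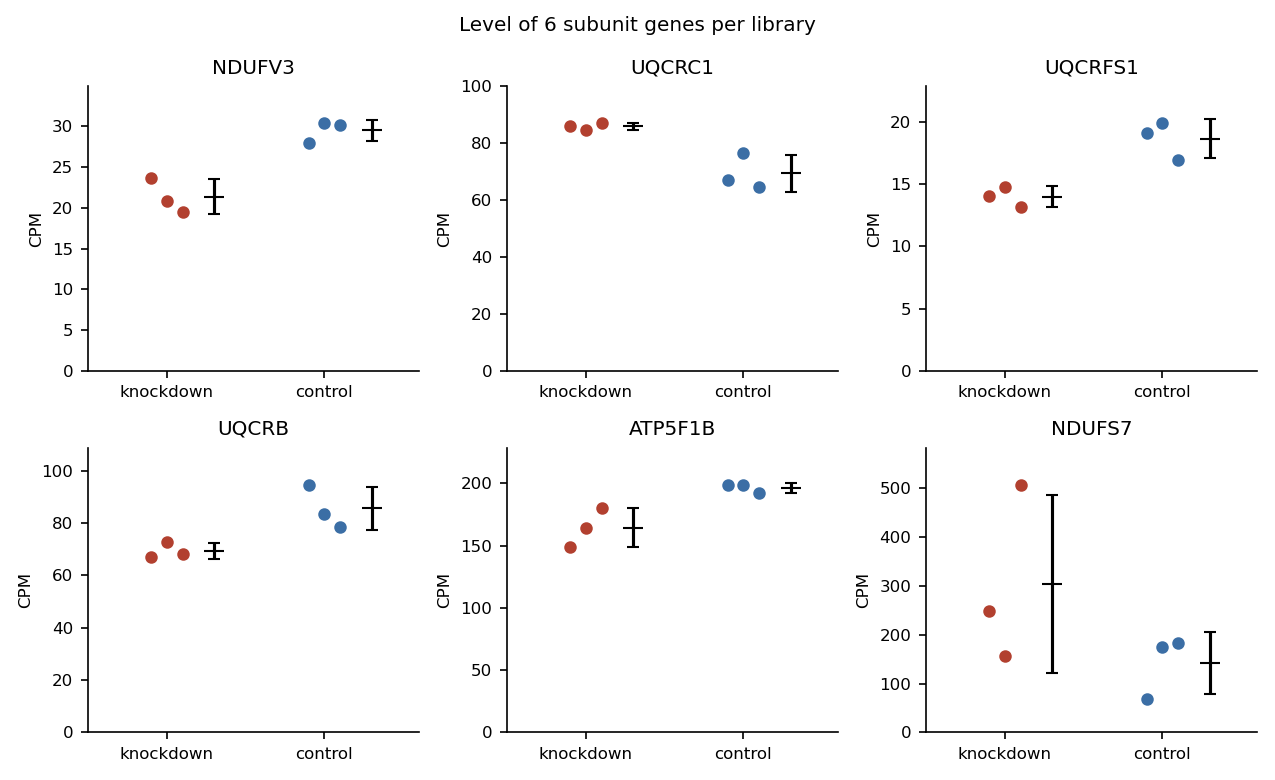
CPM of 6 subunit genes in each library (points), with the mean and SD of each group (bars, n = 3), knockdown at left and control at right; each vertical axis starts at 0. NDUFV3, UQCRFS1, UQCRB and ATP5F1B are lower and UQCRC1 is higher in every knockdown library than in any control library, whereas the NDUFS7 groups overlap and spread widely.

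Complex II, succinate dehydrogenase, is also an enzyme of the tricarboxylic acid cycle. The median log2 fold change of its 4 genes was 0.02, and the groups overlapped for each. SDHA, the flavoprotein that oxidises succinate, had 42.7, 45.7 and 45.0 CPM in knockdown and 41.4, 42.5 and 46.3 CPM in control libraries (log2 fold change 0.04, 95% interval -0.15 to 0.22, edgeR adjusted p = 0.825). SDHB, the iron-sulfur subunit, had 27.5, 31.1 and 26.5 CPM in knockdown and 27.1, 31.8 and 26.2 CPM in control libraries (log2 fold change 0.00, 95% interval -0.26 to 0.26, edgeR adjusted p = 0.994). The values of these 2 genes were close in all 6 libraries. Of the membrane anchors, SDHC averaged 10.1 ± 1.04 CPM in knockdown and 12.3 ± 1.95 CPM in control libraries (-0.27, edgeR adjusted p = 0.383). SDHD averaged 10.4 ± 1.95 CPM in knockdown and 9.25 ± 2.53 CPM in control libraries (0.19, edgeR adjusted p = 0.689; SD, n = 3 each for both anchors).

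Complex III, the cytochrome bc1 complex, passes electrons from ubiquinol to cytochrome c. None of its 10 genes was called, 7 were below and 3 above 0, and the median log2 fold change was -0.10. Its subunits differed in direction. UQCRC1, a core protein facing the matrix, had 86.0, 84.6 and 87.1 CPM in knockdown and 67.1, 76.6 and 64.5 CPM in control libraries, the only complex III gene with every knockdown library above every control library (log2 fold change 0.31, SE 0.08, 95% interval 0.11 to 0.51, edgeR adjusted p = 0.0728). UQCRFS1, the Rieske iron-sulfur protein, had 14.0, 14.8 and 13.1 CPM in knockdown and 19.1, 19.9 and 16.9 CPM in control libraries, with every knockdown library lower (-0.42, SE 0.12, 95% interval -0.69 to -0.14, edgeR adjusted p = 0.0772). UQCRB, a subunit that helps shape the ubiquinone site, had 66.9, 72.8 and 68.3 CPM in knockdown and 94.6, 83.5 and 78.5 CPM in control libraries, again with every knockdown library lower (-0.30, SE 0.09, edgeR adjusted p = 0.0929). CYC1, cytochrome c1, averaged 30.8 ± 0.857 CPM in knockdown and 34.0 ± 1.12 CPM in control libraries (SD, n = 3 each), and its groups did not overlap either (-0.14, edgeR adjusted p = 0.384).

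Complex IV, cytochrome c oxidase, has several subunits that come in tissue-specific isoforms. Of its 19 genes 12 were tested, none was called, 8 were below and 4 above 0, and the median log2 fold change was -0.09. COX4I1, the widely expressed isoform of subunit IV, had 66.7, 70.9 and 59.5 CPM in knockdown and 63.1, 68.4 and 61.1 CPM in control libraries, with overlapping groups (0.03, 95% interval -0.18 to 0.25, edgeR adjusted p = 0.866). COX5A averaged 5.85 ± 1.21 CPM in knockdown and 7.82 ± 0.564 CPM in control libraries (SD, n = 3 each), the lowest log2 fold change of the complex at -0.41 (edgeR adjusted p = 0.275). The highest was 0.07 for NDUFA4, which had 64.3, 63.3 and 63.5 CPM in knockdown and 63.1, 62.2 and 56.8 CPM in control libraries (edgeR adjusted p = 0.641). COX5B and COX6C had log2 fold changes of -0.12 and 0.06 (edgeR adjusted p = 0.473 and 0.730). COX7A2L, known for its role in respiratory supercomplexes, averaged 48.2 ± 4.82 CPM in knockdown and 56.1 ± 3.01 CPM in control libraries (SD, n = 3 each), with every knockdown library lower (-0.22, edgeR adjusted p = 0.223).

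The tissue-specific isoforms were near or at 0 in both groups. COX4I2, COX6A2 and COX7B2 had no read in any of the 6 libraries. COX6B2, an isoform known from testis, had 1, 0 and 0 counts in knockdown and 1, 0 and 0 in control libraries. COX8C, also known from testis, had 0 in all knockdown libraries and 1, 0 and 0 counts in control libraries. COX7A1, the heart and muscle isoform, had 0, 1 and 2 counts in knockdown and 2, 1 and 1 in control libraries. NDUFA4L2, which is known to be induced by hypoxia, had 4, 1 and 5 counts in knockdown and 1, 4 and 1 in control libraries. The widely expressed partners were read in every library: COX6A1, COX6B1, COX7A2, COX7B and COX8A averaged 8.27, 22.6, 26.8, 38.7 and 13.6 CPM in knockdown and 8.94, 24.2, 28.5, 42.6 and 13.7 CPM in control libraries, with log2 fold changes of -0.12, -0.09, -0.09, -0.14 and -0.02 and none called.

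ATP synthase was the complex whose genes lay furthest below 0 as a group. The median log2 fold change of its 17 tested genes was -0.21, with 14 below and 3 above 0, though none was called. ATP5F1A and ATP5F1B encode the alpha and beta subunits of the catalytic head, and together they made up 52.8% of the complex's summed CPM in knockdown and 54.3% in control libraries. ATP5F1B, whose protein holds the catalytic sites, had 149, 164 and 180 CPM in knockdown and 198, 199 and 192 CPM in control libraries, with every knockdown library lower (log2 fold change -0.26, SE 0.09, 95% interval -0.46 to -0.05, edgeR adjusted p = 0.125). ATP5F1A had 275, 313 and 300 CPM in knockdown and 309, 339 and 360 CPM in control libraries, where knockdown replicate 2 was above control replicate 1 (-0.18, SE 0.09, edgeR adjusted p = 0.275).

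The other ATP synthase genes with groups apart belong to the rotor ring, the stalks and the membrane part. In all, 6 of the 17 tested ATP synthase genes had groups apart, 5 lower and 1 higher. Only the total is near the 30.4% of all genes tested. By direction the 6 genes lean lower, whereas over all genes tested 15.9% were apart lower and 14.5% higher. ATP5MK, a small membrane subunit, averaged 25.4 ± 2.01 CPM in knockdown and 31.1 ± 1.06 CPM in control libraries (-0.29, SE 0.09, edgeR adjusted p = 0.0923). ATP5PF and ATP5PD of the peripheral stalk had lower values in every knockdown library (-0.25 and -0.13, edgeR adjusted p = 0.316 and 0.341). ATP5PB, the main peripheral stalk subunit, overlapped between groups but differed at an unadjusted p under 0.05 (-0.25, edgeR adjusted p = 0.197). ATP5F1E, the epsilon subunit of the central stalk, went the other way, with 43.9, 45.7 and 46.3 CPM in knockdown and 43.8, 38.0 and 37.8 CPM in control libraries (0.18, edgeR adjusted p = 0.248). ATP5MC1, ATP5MC2 and ATP5MC3 encode the same mature c subunit of the rotor ring, and their log2 fold changes were -0.56, 0.29 and -0.21. ATP5MC3, the most abundant of these by CPM, averaged 33.1 ± 1.76 CPM in knockdown and 38.4 ± 2.33 CPM in control libraries (edgeR adjusted p = 0.168). ATP5MC1 averaged 3.92 ± 0.757 and ATP5MC2 17.0 ± 2.08 CPM in knockdown, against 5.79 ± 1.20 and 13.9 ± 3.65 CPM in control libraries (edgeR adjusted p = 0.235 and 0.454; SD, n = 3 each). ATP5MGL, a relative of the g subunit gene, had 4, 2 and 1 counts in knockdown and 5, 3 and 1 in control libraries and was not tested.

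Summed levels per complex put these small differences side by side, as a description with no test. ATP synthase summed to 834, 890 and 890 CPM in knockdown libraries and 961, 1000 and 978 CPM in control libraries. The groups did not overlap, and the knockdown mean of 871.5 ± 32.4 CPM stood against a control mean of 980 ± 19.4 CPM (SD, n = 3 each), a difference of -11.0%. Without ATP5F1A and ATP5F1B the sum was 411 ± 1.32 CPM in knockdown and 447 ± 18.7 CPM in control libraries, a difference of -8.13%. The sums of complex III were 390 ± 7.90 CPM in knockdown and 404 ± 13.0 CPM in control libraries, and those of complex IV averaged 397 CPM in knockdown and 411 CPM in control libraries. Complex II averaged 93.3 CPM in both groups.

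The sum of complex I rests on NDUFS7. With it, the sum was 1032 ± 181 CPM in knockdown and 891 ± 64.7 CPM in control libraries. NDUFS7 alone supplied 25.2%, 17.7% and 41.2% of the sum in knockdown libraries and 8.41%, 19.0% and 19.6% in control libraries. Without NDUFS7, an alternative added after the data were seen, the sums were 738, 722 and 724 CPM in knockdown and 747, 750 and 749 CPM in control libraries, a difference of -2.73% with groups that did not overlap. All members together summed to 2784.5 ± 184 CPM in knockdown and 2778 ± 70.2 CPM in control libraries. Without NDUFS7 they summed to 2480.5 ± 21.2 CPM in knockdown and 2636 ± 26.5 CPM in control libraries, a difference of -5.90%.

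**Figure D3:**
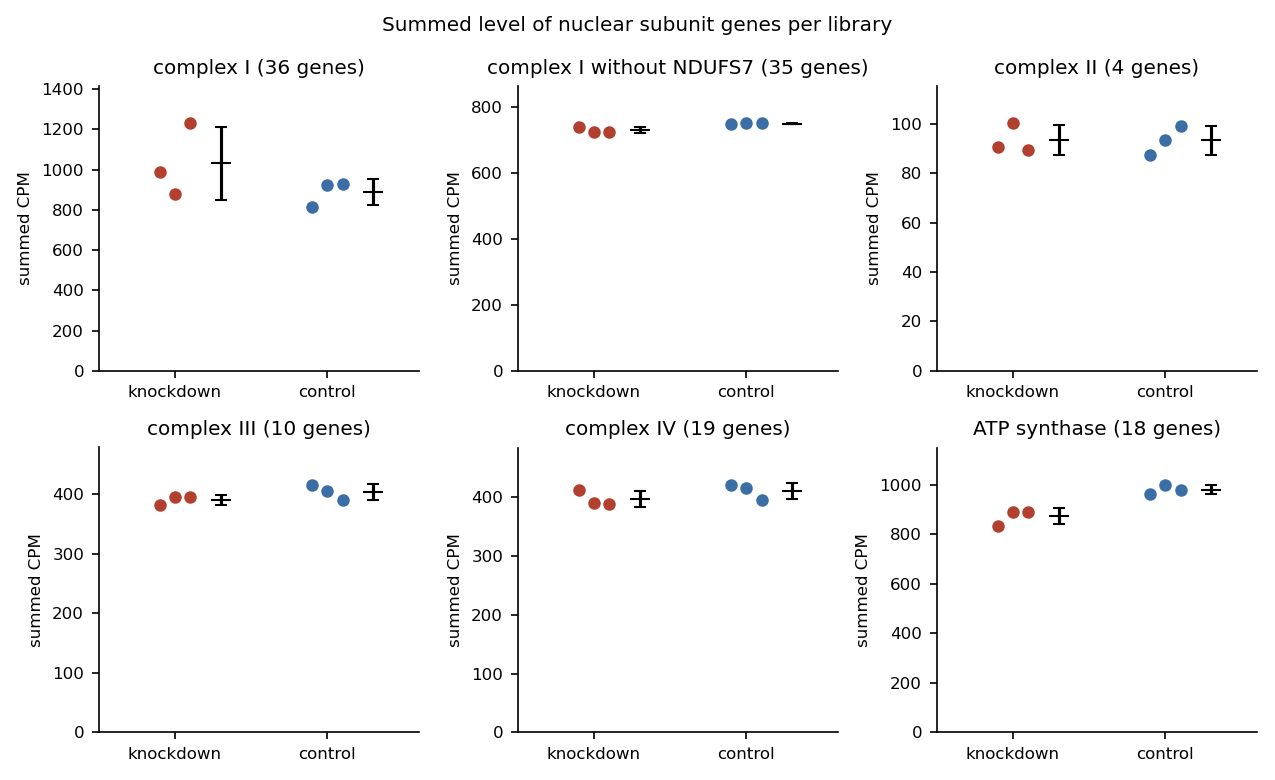
Summed CPM of the subunit genes of each complex per library (points), with the mean and SD of each group (bars, n = 3), knockdown left of control. The ATP synthase sums of the knockdown libraries, 834 to 890 CPM, lie below the control sums of 961 to 1000 CPM, and the spread of the complex I sums nearly vanishes once NDUFS7 is left out.

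Per kilobase of principal transcript, NDUFS7 had the highest level of the members, 215 CPM per kb over the 6 libraries, followed by NDUFS5 with 115, ATP5F1B with 98.1, COX4I1 with 90.7 and ATP5F1A with 81.4. Counts are per gene, however, and the exons of NDUFS7 in GENCODE 29 span 7533 bases, against 1039 in its principal transcript. Its first rank therefore rests on the length used, and levels per kb are rough for members with many further exon bases. The median level per kb was 14.7 in complex I, 12.6 in complex II, 27.6 in complex III, 31.0 in complex IV and 25.2 in ATP synthase. Over the 79 members, the log2 fold change had a Spearman's rho of 0.02 with transcript length, 0.02 with GC content and 0.19 with mean level, given as a description across genes that share the same libraries.

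The 13 mitochondrially encoded subunit genes of the same complexes all had log2 fold changes below 0. Of these, 5 were called, all lower (MT-ND4L, MT-ND5, MT-CYB, MT-CO3 and MT-ATP8, log2 fold changes -0.92, -0.68, -0.71, -0.75 and -1.21). Over all genes tested 4.31% were called lower, and the median of the 13 genes was -0.72. The summed MT-ND genes were 0.399, 0.317 and 0.332 of the summed nuclear complex I genes without NDUFS7 in knockdown libraries and 0.565, 0.495 and 0.484 of them in control libraries. For complex III, the ratio of MT-CYB to nuclear genes averaged 0.0916 ± 0.0169 in knockdown and 0.145 ± 0.0127 in control libraries. For complex IV, the MT-CO ratio averaged 0.440 ± 0.0652 in knockdown and 0.595 ± 0.0469 in control libraries. For ATP synthase, the MT-ATP ratio averaged 0.0130 ± 0.00207 in knockdown and 0.0246 ± 0.00321 in control libraries (SD, n = 3 each for all ratios). In each complex the 3 knockdown ratios lay below the 3 control ratios, and the difference in the ratios was not tested. The 13 mitochondrially encoded genes together had 449 to 737 CPM over the 6 libraries, from unique alignments only. How many of their reads the counting left out is not known here, so these values and ratios may not give the full mitochondrial transcript level.

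**Figure D4:**
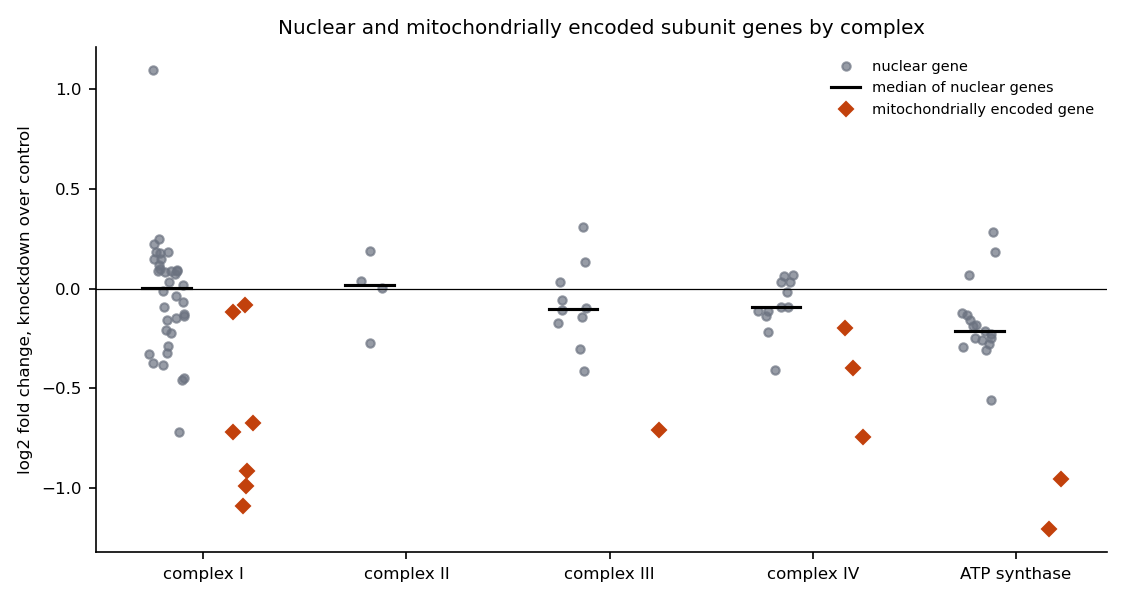
Log2 fold change, knockdown over control (vertical axis), of each tested nuclear subunit gene (grey points, with their median as a bar) and each mitochondrially encoded subunit gene (diamonds), by complex. The 13 diamonds all lie below 0, from -0.08 for MT-ND2 to -1.21 for MT-ATP8, while the nuclear medians lie between -0.21 and 0.02; the single nuclear point above 1 is NDUFS7.

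Alignments that were not unique, which stayed out of the gene counts, made up 64.4% to 66.6% of all counts in the knockdown files. In the control files they made up 67.6% to 68.8%, and the groups did not overlap. This touches members with near-identical copies: 44 tested members have 158 named pseudogenes in GENCODE 29, with 13 for COX6C and 12 each for NDUFA5 and NDUFB4. ATP5F1A has 6, UQCRB and UQCRFS1 have 3 each and ATP5F1B has 1, whereas NDUFV3 and UQCRC1 have none. The values of the 44 members are uncertain in that respect. The median log2 fold change was -0.12 over these 44 members and -0.07 over the 35 without a named pseudogene. The part of this share in the members' differences was not tested. The exons of 43 tested members overlap another annotated gene, 32 of them one on the opposite strand. NDUFV3, UQCRC1 and ATP5F1B have no such overlap, whereas ATP5F1A overlaps HAUS1, and UQCRFS1 and UQCRB each overlap 1 noncoding gene on the opposite strand.

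In the authors' deposited table, which holds 78 of the members and calls 12.0% of its 11638 genes at an adjusted p under 0.05, 3 members passed. The authors' deposited table lists UQCRC1 as higher (log2 fold change 0.32, adjusted p = 0.0168) and UQCRB and ATP5F1B as lower in knockdown (-0.29 and -0.25, adjusted p = 0.0177 and 0.00868). NDUFV3 has a log2 fold change of -0.45 and an adjusted p of 0.0617 in the authors' deposited table. The direction of these 4 genes is the same as in the edgeR fit, and the calls differ.

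Genes that build, supply or control the chain were mostly uncalled, as were most genes. Over all genes tested 8.21% were called (3.90% as higher and 4.31% as lower), the share to set beside each list below. None of 16 tested complex I assembly factors was called (median log2 fold change -0.08). Among 34 tested assembly factors of the other complexes 1 was called: HIGD1A, a small inner-membrane protein linked to complexes III and IV, averaged 35.9 ± 3.39 CPM in knockdown and 49.5 ± 3.70 CPM in control libraries (SD, n = 3 each; -0.46, SE 0.10, edgeR adjusted p = 0.0374). Among 15 genes of electron carriers and ubiquinone synthesis 1 was called: CYCS, cytochrome c itself, had 38.4, 35.2 and 38.8 CPM in knockdown and 56.8, 54.9 and 55.0 CPM in control libraries, 1.48-fold lower (-0.57, SE 0.07, edgeR adjusted p = 0.00675). The groups of CYCS lay far apart. CYC1 of complex III, whose groups did not overlap either, and COX4I1 of complex IV differed by -0.14 and 0.03 on the log2 scale. Other genes of these 2 complexes differed more, in both directions: UQCRC1 by 0.31, UQCRFS1 by -0.42, MT-CYB by -0.71 and MT-CO3 by -0.75.

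Among 21 genes of the tricarboxylic acid cycle and pyruvate dehydrogenase, PC, pyruvate carboxylase, was higher at 17.9 ± 1.65 CPM in knockdown and 10.5 ± 1.26 CPM in control libraries (0.79, SE 0.15, edgeR adjusted p = 0.0225). IDH3A, a subunit of the NAD-dependent isocitrate dehydrogenase, was lower at 16.2 ± 1.03 CPM in knockdown and 23.5 ± 2.63 CPM in control libraries (-0.53, SE 0.12, edgeR adjusted p = 0.0402; SD, n = 3 each). Import and chaperone genes had 2 called of 16, both lower, against 4.31% of all genes tested that were called lower. TOMM20, a receptor of the outer-membrane import pore, averaged 56.6 ± 1.38 CPM in knockdown and 85.8 ± 3.17 CPM in control libraries (-0.60, edgeR adjusted p = 0.00399). HSPD1, the mitochondrial chaperonin, averaged 73.0 ± 4.85 CPM in knockdown and 109.6 ± 5.16 CPM in control libraries (-0.59, edgeR adjusted p = 0.00848; SD, n = 3 each).

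Of 73 tested mitochondrial ribosomal proteins 1 was called, MRPL52, with 10.2 ± 0.777 CPM in knockdown and 15.7 ± 1.07 CPM in control libraries (SD, n = 3 each; -0.61, edgeR adjusted p = 0.0365), and the list's median was -0.09. None of 17 tested regulators of mitochondrial biogenesis was called. PPARGC1A, a coactivator of these genes, averaged 3.59 ± 0.793 CPM in knockdown and 1.55 ± 1.05 CPM in control libraries (SD, n = 3 each; 1.23, edgeR adjusted p = 0.149). Its groups overlapped, with 3.96, 4.13 and 2.68 CPM in knockdown and 1.11, 2.74 and 0.793 CPM in control libraries. The value of control replicate 3 is near the level of 3 counts. TFAM, NRF1 and GABPA had log2 fold changes of -0.34, 0.06 and -0.24. Glycolysis, the other main source of ATP, had a list median of -0.22. It had 3 genes called of 16, all lower, against 4.31% of all genes tested that were called lower. These were HK2 (hexokinase, -0.67), LDHA (lactate dehydrogenase, -0.54) and PDK1 (an inhibitory kinase of pyruvate dehydrogenase, -0.66), with edgeR adjusted p = 0.0272, 0.0108 and 0.0174.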

How the data were processed

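RNA was depleted of ribosomal RNA, made into strand-keeping libraries with dUTP and sequenced in 1 lane, per the labels' protocols. Reads were processed with CASAVA 1.7, GSNAP (a version named by its date) and HTSeq on hg19, per the submitters' processing notes. The authors deposited raw counts per Ensembl gene for each library. For the counting, the sources used here do not give the annotation, the version of HTSeq or its strand option. Lines that name no gene (86.28% to 88.05% of all counts in the files) stayed out of library sizes. The authors also deposited a DESeq 1.10.1 comparison table with mean signal (size-factor scaled counts), the fold ratio of group means, its log2, and p-values before and after adjustment.

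Counts were filtered with filterByExpr (minimum count 10), scaled with TMM and tested with edgeR 4.0.16 (glmQLFit, glmQLFTest, group only, R 4.3.3), with Benjamini-Hochberg adjustment over all 13445 genes. SE is the absolute log2 fold change over the square root of F. Intervals use the t quantile at the fit's degrees of freedom. The biological coefficient of variation was 24.9%. Depth was 3741087 to 6421605 counts, and 3 counts are taken as the floor. Alternatives were 2 other scalings, 2 other filters, 2 gene subsets, a replicate block, each library left out, DESeq2 1.42.0, limma-voom 3.58.1 and GC content with transcript length as an offset. The steps were tested on simulated data.

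Symbols came from GENCODE 29 (47399 of 57659 identifiers matched), which is on another build, so no coordinates of the files are given. NDUFA7 is not analysed here. Members and lists were chosen with earlier results of these data known. Named genes are every member called, the highest and lowest of each complex, fixed core subunits and isoform pairs, members with groups apart or an unadjusted p under 0.05, and the called genes of each list; 1 core subunit is not reported here. The pathway regulators named without a call, NDUFS6, and the genes set beside NDUFS7 were chosen after their values were seen.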

Additional observations from a re-analysis of the deposited data

How the results depend on the processing

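The test called 1104 genes, against 2049 when only protein-coding genes entered, 2060 with only the genes of the authors' table, 416 with a replicate block and 427 to 564 with 1 library left out. Replicates that share a number did not deviate together (correlations -0.03, -0.02 and -0.17 over 13445 genes). Those with unlike numbers had correlations from -0.14 to 0.17. With 3 libraries per group these values cannot tell whether replicates were prepared in pairs. The 1 call among members became 0 with no filter, with the replicate block and with DESeq2, and 0 to 1 with 1 library left out (1 only without knockdown replicate 1). It became 2 with the offset (NDUFB7 and NDUFV3) and 2 with small RNA genes left out, which was added after seeing the data (UQCRC1 and NDUFV3). With protein-coding genes only, and likewise with the genes of the authors' table, it became 5: UQCRC1, ATP5F1B, NDUFS7, UQCRB and NDUFV3. With protein-coding genes only, these are 5 of 79 members, a smaller share than the 2049 called of all 10437 genes. For the fits with no filter, DESeq2, the offset and small RNA genes left out, the share of all genes called is not given here. Those counts are therefore not set against a background. In complex I the count was 0 with no filter, the block and DESeq2, 2 with either gene subset and with the offset, and 0 to 1 with 1 library left out. In complex III it was 2 with either gene subset and 1 with small RNA genes left out, in ATP synthase 1 with either subset, and in complexes II and IV 0 throughout. The cause of these differences was not tested. NDUFV3 was called in 9 of 17 alternatives, with log2 fold changes from -0.53 to -0.40 in all of them. NDUFS7 was called in 2 of 17, with 0.51 to 1.42. Members near 0 that changed sign, uncalled, were SDHA with the offset (-0.039), SDHB with at least 20 counts (-0.0020) and COX8A with upper-quartile scaling (0.0013). With 1 library left out, the log2 fold change spanned -0.066 to 0.0916 for SDHB, -0.022 to 0.102 for COX4I1, -0.302 to 0.084 for COX6A1, -0.156 to 0.0043 for COX6B1 and -0.211 to 0.135 for COX8A. The log2 ratio of the ATP synthase sums stayed between -0.18 and -0.14 with 1 library left out, that of complex I between 0.07 and 0.32. Depth limits the low members most: NDUFA3 and ATP5MC1 had 10 to 38 counts per library.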
